A study of Mus musculus with 18 samples.

Results

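Epithelial cells hold together through E-cadherin junctions, tight junctions and desmosomes, and they carry a keratin network inside. The results below describe 10 genes of this machinery in mouse embryonic stem cells (mESCs) and embryoid bodies: Cdh1, Epcam, Perp, Ocln, Cldn4, Cldn6, Cldn7, Krt8, Krt18 and Krt19. They were taken by gene symbol from the 54429 gene names of the deposited FLAG-EED count table, and all 10 are also in the table of the wildtype mESCs. The set was chosen in part because several of these genes were lower in the K19R line at day 10, so the day 10 libraries are described below without a test.

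The study measured total RNA in 18 libraries, 2 for each of 9 groups, to follow a mutation of EED through differentiation. EED belongs to the core of PRC2, the Polycomb complex that keeps developmental genes silent by methylating histone H3. Mouse ESCs with a FLAG-EED wildtype or a FLAG-EED K19R knock-in, the latter a lysine-to-arginine change, were grown in LIF + 2i (day 0), where 2i is the MEK inhibitor PD0325901 with the GSK3 inhibitor CHIR99021. Both lines were also measured as embryoid bodies at days 2, 6 and 10, kept in suspension on a shaker in medium lacking LIF and 2i. The ninth group is wildtype mESCs grown with LIF. All stem cells grew on gelatin in medium with serum and LIF, and all 8 groups other than the wildtype mESCs carried the FLAG-EED knock-in. The sources used here do not give how many knock-in clones there were or how the wildtype mESCs relate to them, so a difference between the lines cannot be told apart from one between clones. The labels do not say that the 2 libraries of a group came from separate cultures, so the p-values measure the spread between these libraries, which may be technical. Counts per gene do not show the EED substitution itself.

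Cdh1 encodes E-cadherin, the adhesion receptor of the adherens junction, which mESCs use to form compact colonies. Epcam encodes a homophilic adhesion protein of epithelia and stem cells, and Perp a membrane protein of desmosomes. Occludin (Ocln) and the claudins (Cldn4, Cldn6, Cldn7) span the membrane at tight junctions, where claudins set which ions pass between cells. Krt8 encodes a type II keratin that forms filaments with the type I keratins of Krt18 and Krt19, and this set is typical of simple epithelia, among them the first epithelia of the embryo, trophectoderm and the endoderm on the outside of embryoid bodies.

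Promoters are shown here because the repressors Snai1, Snai2, Zeb1 and Zeb2, whose levels are given further on, are known to bind the E-box CAGGTG in promoters of epithelial genes. The RefSeq promoter table (build GRCm38.p6) held 9 start sites of 7 of the 10 genes: Epcam, Ocln, Cldn4, Cldn6, Cldn7, Krt8 and Krt18. Within 250 bases upstream of a start, CAGGTG or its reverse complement CACCTG was found for all 7 genes and at 7 of 9 starts, against 17.2% of the 32851 promoters in that table. The exceptions were the first start of Ocln and the first of Cldn7. For Ocln, Cldn6, Cldn7 and Krt8, the RefSeq start with an E-box lies 220, 116, 642 and 140 bases inside the deposited gene. Their E-boxes, the furthest at 213, 93, 97 and 111 bases before that start, thus also lie inside the deposited gene. Only Epcam, Cldn4 and Krt18 hold an E-box upstream of both the RefSeq and the deposited gene start. Bases upstream of both the RefSeq and the deposited gene start are printed for an adhesion gene, a claudin and a keratin, 5′ to 3′ on the gene's strand, with each E-box in capitals. 
Epcam, chr17:87635729-87635978, plus strand: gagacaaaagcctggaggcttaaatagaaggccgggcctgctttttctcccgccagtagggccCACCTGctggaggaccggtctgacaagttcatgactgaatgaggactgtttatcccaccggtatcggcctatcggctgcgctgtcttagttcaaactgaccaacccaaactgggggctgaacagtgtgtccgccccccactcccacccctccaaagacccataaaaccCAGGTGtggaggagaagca
Cldn4, chr5:134946935-134947184, minus strand: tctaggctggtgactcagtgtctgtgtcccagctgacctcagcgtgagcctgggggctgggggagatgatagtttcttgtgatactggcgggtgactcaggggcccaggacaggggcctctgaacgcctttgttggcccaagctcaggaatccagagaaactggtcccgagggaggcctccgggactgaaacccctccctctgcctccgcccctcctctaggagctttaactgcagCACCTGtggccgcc
Krt18, chr15:102027966-102028179, plus strand: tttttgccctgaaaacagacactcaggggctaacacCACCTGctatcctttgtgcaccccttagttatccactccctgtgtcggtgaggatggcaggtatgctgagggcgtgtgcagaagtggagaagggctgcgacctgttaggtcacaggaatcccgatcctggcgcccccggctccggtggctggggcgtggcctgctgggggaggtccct
Epcam holds the E-box at 187 and 19 bases before its start, Cldn4 at 14 bases, and Krt18 at 214 bases before the RefSeq start. Other motifs were searched on both strands in the same windows. The GC box GGGCGG of Sp1 and Klf factors was found for 5 of 7 genes and at 6 of 9 starts (32.7% of all promoters). The Tfap2 motif GCCNNNGGC was found for 2 genes, at 2 of 9 starts (13.7%). The AP-1 motif TGANTCA was found for Cldn4 alone, at 1 of 9 starts (6.75%). The Grhl motif AACCNGTT (1.79%) and the TATA box TATAAA (12.4%) were found for none. In the second Ocln window a Tfap2 and a GC box match share bases. These matches are letters in a window and not measured binding.

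The genes lie on 7 chromosomes of GRCm38. Cdh1 is at chr8:106603351-106670246, Epcam at chr17:87635979-87651106, Perp at chr10:18845020-18857073 and Ocln at chr13:100496507-100552718. The claudin genes are at chr5:134945119-134946934 (Cldn4), chr17:23679249-23682446 (Cldn6) and chr11:69964779-69967885 (Cldn7). Krt8 (chr15:101996698-102004482) and Krt18 (chr15:102028180-102032027) are neighbours 23698 bases apart, and Krt19 is at chr11:100140810-100148665. Values count reads over all exons of a gene. Of the 10 genes, only Krt8 shares exonic bases with another gene, 5.16% of its exon length with Gm36026 on the opposite strand, which had at most 7 counts in a library. Krt8 also has a pseudogene copy, Krt8-ps, 98.6% identical over 941 bases and with 0 to 195 counts, and Krt18 a copy, Gm5200, 90.5% identical over 1267 bases with at most 1 count. Reads shared with a copy may be lost or moved, so the levels of Krt8 and Krt18 are uncertain; how many reads are affected was not measured.

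The 16 FLAG-EED libraries held 20158077 to 28917558 counts and the 2 wildtype libraries 14190166 and 37375083. All 10 genes passed the filter on low counts, so tests cover every one of them. Levels are in CPM, that is, read counts relative to library size, after TMM scaling, which corrects for a few genes taking a large share of a library. Scaling factors were 0.796 to 0.829 in the 4 FLAG-EED wildtype libraries of days 6 and 10 and 0.986 to 1.09 in the other 14, so comparisons with those 4 libraries depend on the scaling. With library totals alone, the median log2 difference of all genes between the lines at day 6 moved from 0.02 to 0.38, and values that this changes are given beside the results. Changes are log2 fold changes ± SE from edgeR's quasi-likelihood test, called at a Benjamini-Hochberg adjusted p under 0.05 over 19092 genes (19296 where the wildtype mESCs enter). These are bulk samples, in which fewer cells of a type and less RNA per cell of that type cannot be told apart.

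**Figure D1:**
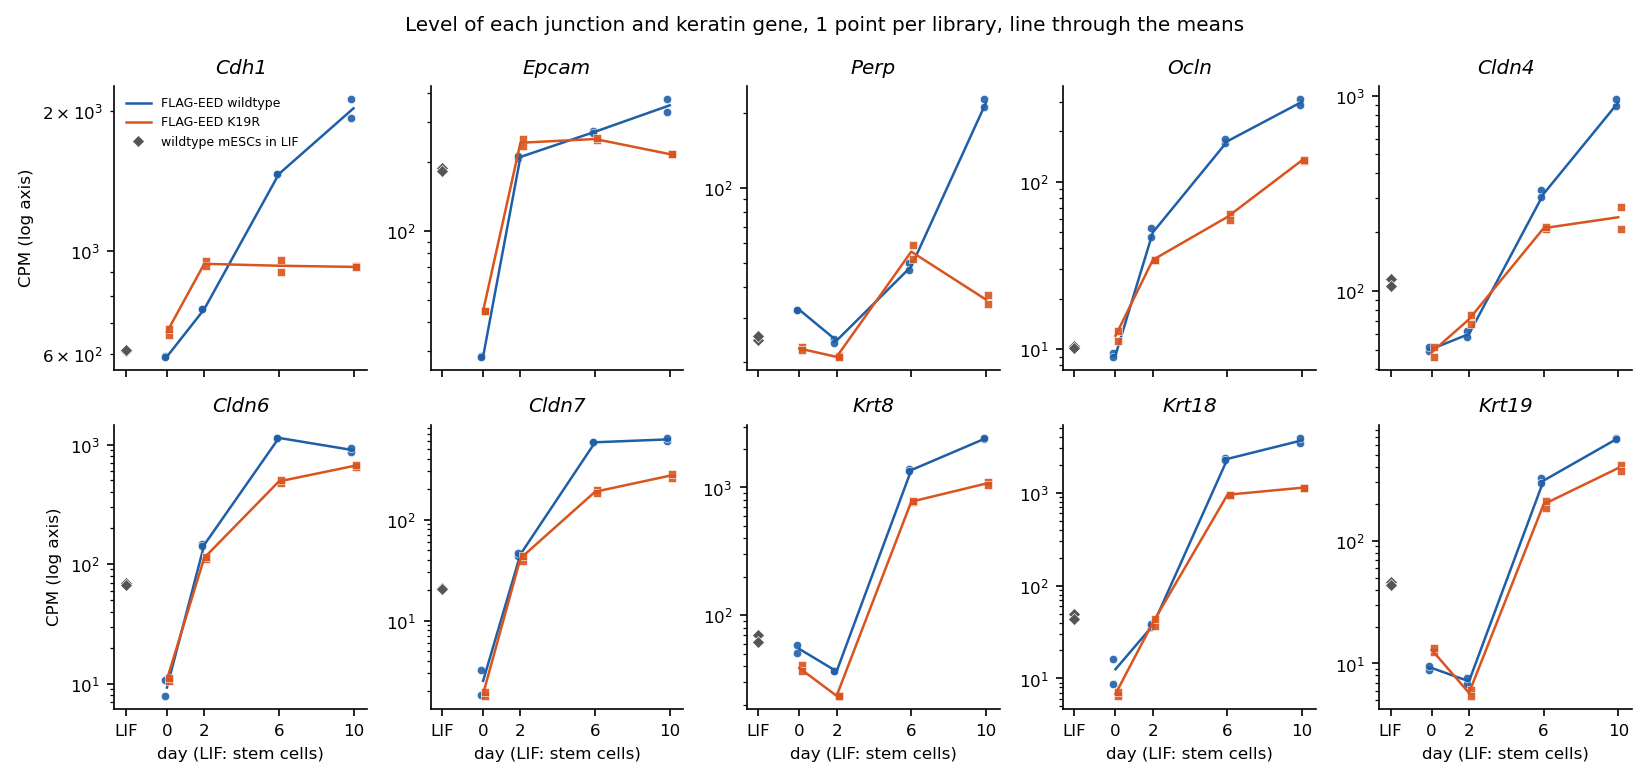
Level of each gene in CPM (log axis, scaled per panel) against day for FLAG-EED wildtype (blue circles) and K19R (orange squares), with wildtype mESCs in LIF as grey diamonds at the left. Each point is 1 library and lines join group means; Cdh1 in K19R stays between 901 and 957 CPM from day 2 to day 10, while the 3 keratins rise steeply from day 2 to day 6 in both lines.

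Stem cells in LIF + 2i already expressed Cdh1 strongly and the rest weakly. Per kilobase of exon, which allows genes to be compared, Cdh1 led in FLAG-EED wildtype stem cells at 129.5 CPM per kb, followed by Krt8 at 27.8 and Cldn4 at 27.8, whose libraries overlapped. Cldn7 was the lowest, at 1.30 CPM per kb. At day 2 Cdh1 still led at 163.8 CPM per kb in FLAG-EED wildtype and 205 in K19R, with Epcam next at 103.2 and 119. By day 6 the order had turned in both lines, with Krt18 leading at 1605 CPM per kb in FLAG-EED wildtype and 660.4 in K19R, then Krt8 at 698.6 and 395.3, then Cldn6 at 660.1 and 285.4. Perp and Ocln were the lowest there, at 24.8 and 41.4 CPM per kb in FLAG-EED wildtype and 28.4 and 14.6 CPM per kb in K19R. Krt18, Krt8 and Cldn6 also held the first 3 places at day 10 in both lines, where Cldn6 and Cldn4 overlapped in FLAG-EED wildtype.

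Before differentiation, K19R cells had more Epcam, Ocln and Krt19 RNA and less Perp, Krt8 and Krt18 RNA than FLAG-EED wildtype cells. That is 3 of 10 higher and 3 lower, where 10.5% of all genes passed the test (5.51% higher and 4.98% lower), and the median of the 10 log2 differences was 0.06 (all genes: -0.0024). Epcam was at 28.6 and 28.1 CPM in FLAG-EED wildtype and 44.9 and 44.8 CPM in K19R, a difference of 0.66 ± 0.08 (edgeR adjusted p = 2e-06). Perp was at 32.4 CPM in both FLAG-EED wildtype libraries and at 22.9 and 22.4 CPM in K19R (log2 difference -0.52 ± 0.08, adjusted p = 0.00017). The groups did not overlap for either gene. Krt8 was at 50.6 and 58.3 CPM in FLAG-EED wildtype and 40.5 and 36.7 CPM in K19R (-0.49 ± 0.08, adjusted p = 0.00011). Krt18 was at 8.80 and 16.3 CPM against 6.45 and 7.20 CPM (-0.89 ± 0.18, adjusted p = 0.0014), and its 2 FLAG-EED wildtype libraries were further apart than the lower one was from K19R. Replicate 2 of FLAG-EED wildtype stem cells stood apart in other genes too: 11 markers of visceral and primitive endoderm summed to 122 CPM there, to 29.7 CPM in replicate 1 and to 51.4 and 54.1 CPM in K19R. Without that library the Krt18 difference was -0.37 (edgeR adjusted p = 0.19) and no longer called, and that of Cldn7, 1.83 and 3.24 CPM against 1.79 and 1.98 CPM, turned from -0.44 to 0.03 with neither called. Without replicate 1 of that group the Cldn7 difference was -0.79 and called (adjusted p = 0.03). The part of endoderm cells in these values was not tested. Ocln (0.39 ± 0.11, edgeR adjusted p = 0.019) and Krt19 (0.49 ± 0.11, adjusted p = 0.0055) were smaller differences, and each lost its call when single libraries were left out, as detailed in the closing section. Cdh1 (0.18), Cldn4 (-0.05) and Cldn6 (0.22) did not pass, although DESeq2 called Cdh1 (0.20, adjusted p = 0.006) and Cldn6 passed without FLAG-EED wildtype replicate 2 (0.46, adjusted p = 0.037).

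The wildtype mESCs grown with LIF differed from the FLAG-EED wildtype cells in LIF + 2i far more than the lines differed from each other at day 0. Of the 10 genes, 7 were higher in LIF and 1 lower, where 64.9% of all genes passed in either direction, 32.4% higher and 32.5% lower. Epcam was at 188.7 and 183.1 CPM in LIF (log2 difference 2.71 ± 0.07), Cldn6 at 69.8 and 67.2 (2.88 ± 0.10), Cldn7 at 20.99 and 20.7 (3.03 ± 0.14), and Cldn4 at 114.5 and 105.8 (1.12 ± 0.09). Keratins were higher as well. Krt18 was at 49.7 and 43.3 CPM (1.87 ± 0.15) and Krt19 at 46.1 and 43.7 CPM (2.28 ± 0.10). Perp was lower at 24.6 and 25.4 CPM (-0.37 ± 0.08, edgeR adjusted p = 0.00029). Krt8 was only slightly higher at 70.5 and 61.9 CPM (0.27 ± 0.08, adjusted p = 0.0033), and without wildtype replicate 1 or without FLAG-EED wildtype replicate 1 it was not called (0.19, adjusted p = 0.072, and 0.17, adjusted p = 0.11). Cdh1, at 607.9 and 613.0 CPM, did not pass (0.04 ± 0.06, adjusted p = 0.57), nor did Ocln, at 10.5 and 10.2 CPM (0.16 ± 0.11, adjusted p = 0.19). Medium, FLAG tag and cell line differ together between these groups, and the 2 tables were counted with different featureCounts releases, so their parts cannot be told apart. The endoderm markers summed to 35.8 and 32.3 CPM in the LIF cells. In the same comparison 17 of 21 other tight junction genes tested were higher in LIF and 0 lower, 6 of 8 desmosome genes were higher and 0 lower, and 5 of 7 repressors of epithelial genes were lower and 1 higher, with a median of -1.90.

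On leaving LIF and 2i, Epcam, Ocln, Cldn6, Cldn7 and Krt18 rose by day 2 in both lines, while Krt8 and Krt19 fell. In FLAG-EED wildtype 7 of 10 genes rose and 3 fell (56.1% of all genes passed, 28.5% up and 27.6% down), and in K19R 7 rose and 2 fell (56.4% passed, 28.5% up and 27.9% down). Cldn6 rose from 7.84 and 10.7 CPM to 148.1 and 141.5 CPM in FLAG-EED wildtype (3.96 ± 0.10) and from 10.5 and 11.1 to 110.9 and 114.5 CPM in K19R (3.39 ± 0.10). Cldn7 rose to 43.8 and 46.9 CPM (4.15 ± 0.14) and to 39.0 and 43.8 CPM (4.46 ± 0.14). Epcam rose to 208.2 and 212.8 CPM (2.89 ± 0.08) and to 233.8 and 251.6 CPM (2.44 ± 0.07). No day 2 library of these 3 genes overlapped a day 0 library of its line. Krt8 fell to 36.3 and 36.4 CPM in FLAG-EED wildtype (-0.58 ± 0.08) and to 23.5 and 23.3 CPM in K19R (-0.73 ± 0.08). Krt19 fell to 6.75 and 7.57 CPM (-0.36 ± 0.12, edgeR adjusted p = 0.015) and to 6.10 and 5.42 CPM (-1.16 ± 0.12, adjusted p = 3.1e-09). So the type II keratin and one type I partner went down while the other partner, Krt18, went up, by 1.56 ± 0.15 in FLAG-EED wildtype and 2.55 ± 0.16 in K19R. The step itself differed between the lines for 5 genes, where 27.1% of all genes passed: in K19R the rise was smaller for Epcam (-0.46 ± 0.10), Ocln (-0.94 ± 0.13) and Cldn6 (-0.58 ± 0.14), the fall of Krt19 was deeper (-0.80 ± 0.17), and the rise of Krt18 was larger (0.99 ± 0.22). The Krt18 value rests on FLAG-EED wildtype day 0 replicate 2, without which it was 0.47 (adjusted p = 0.054), and the Cldn6 value without replicate 1 of that group was -0.38 (adjusted p = 0.06). The calls of Cldn4 (0.25 ± 0.10, adjusted p = 0.028) and Krt19 in FLAG-EED wildtype were lost without day 2 replicate 1, and also without day 0 replicate 1 for Cldn4 and day 0 replicate 2 for Krt19.

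At day 2 the lines differed by modest amounts and in both directions. K19R was higher for 3 of 10 genes and lower for 5, where 41.8% of all genes passed (20% higher and 21.8% lower), and the median was -0.17. Cdh1 was at 750.5 and 748.1 CPM in FLAG-EED wildtype and 949.9 and 925.6 CPM in K19R (0.32 ± 0.07, edgeR adjusted p = 0.00028). Ocln was at 46.9 and 52.6 CPM against 34.1 in both K19R libraries (-0.55 ± 0.08, adjusted p = 3.5e-06). Krt8 showed the largest difference (-0.64 ± 0.08, adjusted p = 4.8e-07) and Cldn6 was also lower (-0.36 ± 0.08, adjusted p = 0.00056). These 4 calls held when any 1 library was left out. The smaller ones of Epcam (0.21), Cldn4 (0.25), Perp (-0.22) and Krt19 (-0.32) did not: the count of called genes fell from 8 to 4 without either FLAG-EED wildtype library or without K19R replicate 2. Cldn7 (-0.13) and Krt18 (0.10) were not called. The endoderm markers were 3840 to 3910 CPM in FLAG-EED wildtype and 316 to 385 CPM in K19R at this day. The part of endoderm cells in the day 2 differences was not tested.

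From day 2 to day 6 the whole set rose in FLAG-EED wildtype embryoid bodies, and most of it rose less in K19R. In FLAG-EED wildtype 10 of 10 genes rose, where 35.6% of all genes did and 72.6% passed in either direction, with a median of 2.68 (all genes: -0.05). In K19R 8 of 10 rose, where 34.7% of all genes rose and 32.1% fell (66.8% in all), with a median of 1.84. The difference between the 2 steps was called for 8 genes, 7 smaller and 1 larger in K19R, where 44.5% of all genes passed (21.3% smaller and 23.2% larger). The contrast of this test names no day 10 library. The day 10 libraries did enter the shared fit, that is, the filter, the scaling and the estimate of the spread.

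**Figure D2:**
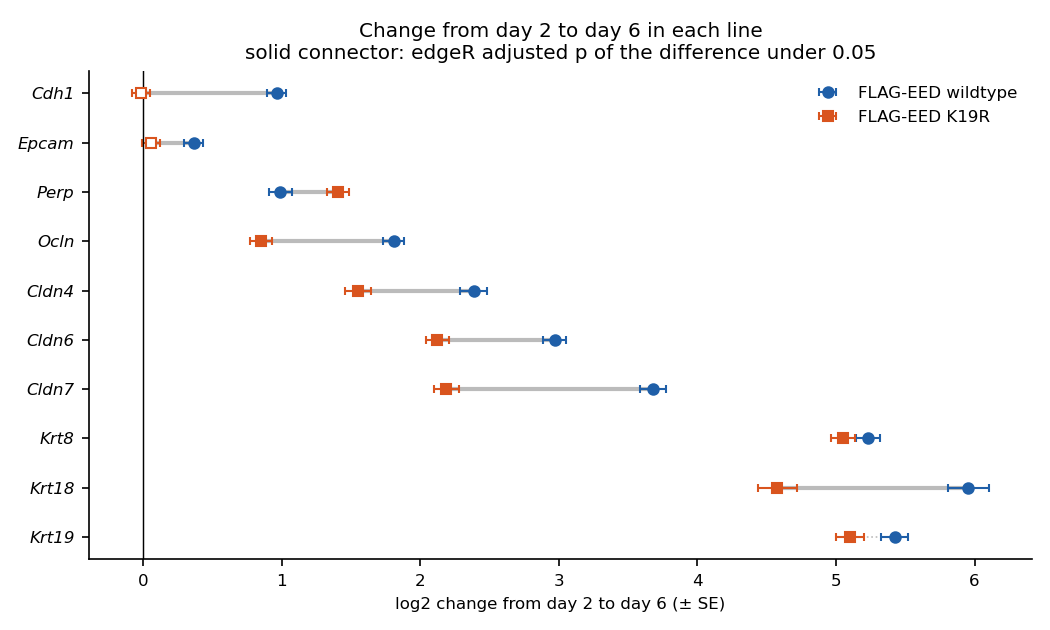
Log2 change from day 2 to day 6 ± SE for each gene in FLAG-EED wildtype (blue circles) and K19R (orange squares), filled where the change passed the edgeR test and joined by a solid line where the 2 changes differed. Cdh1 and Epcam stay at about 0 in K19R, Perp is the one gene further right in K19R, and Krt8 and Krt19 lie close together.

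Of the adhesion genes, Cdh1 rose in FLAG-EED wildtype to 1463 and 1461 CPM (0.96 ± 0.07, edgeR adjusted p = 8.1e-13). In K19R it was at 901.1 and 956.6 CPM at day 6, on either side of its day 2 libraries, and its change was -0.01 ± 0.07 (adjusted p = 0.86). The 2 steps differed by -0.98 ± 0.09 (adjusted p = 4.7e-09). Epcam changed less, with 274.2 and 268.1 CPM in FLAG-EED wildtype (0.36 ± 0.07, adjusted p = 2.5e-05) and 249.1 and 254.9 CPM in K19R (0.05 ± 0.07, adjusted p = 0.48), a difference of -0.31 ± 0.09. Unlike that of Cdh1, the Epcam result depends on the scaling: with library totals alone its FLAG-EED wildtype step was -0.03 and the difference 0.07, neither called. Perp, the desmosome gene, went the other way, from 24.8 and 23.9 to 49.8 and 47.0 CPM in FLAG-EED wildtype (0.99 ± 0.08) and from 21.1 and 20.9 to 52.1 and 58.9 CPM in K19R (1.41 ± 0.08). Its step was larger in K19R by 0.41 ± 0.12 (adjusted p = 0.0046).

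All 4 tight junction genes rose in both lines and rose less in K19R. Ocln reached 169.6 and 179.6 CPM in FLAG-EED wildtype (1.81 ± 0.08) and 64.5 and 58.8 CPM in K19R (0.85 ± 0.08). Cldn4 reached 327.5 and 301.4 CPM (2.39 ± 0.10) and 207.6 and 211.8 CPM (1.55 ± 0.09). Cldn6 reached 1142 and 1130 CPM (2.97 ± 0.08) and 479.7 and 502.8 CPM (2.12 ± 0.08). In each gene both FLAG-EED wildtype libraries were well above both K19R libraries. Cldn7 had the widest gap between steps, with 584.9 and 581.6 CPM (3.68 ± 0.09) against 195.4 and 182.4 CPM (2.19 ± 0.09), a difference of -1.49 ± 0.12 (edgeR adjusted p = 3.6e-10). The differences of the other 3 were -0.95 (Ocln), -0.83 (Cldn4) and -0.85 (Cldn6), and with library totals alone the 4 differences stayed called at -0.58, -0.46, -0.47 and -1.11 in the order Ocln, Cldn4, Cldn6, Cldn7.

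The keratins showed the steepest rises of the set in both lines. Krt8 went from 36.3 and 36.4 CPM to 1391 and 1345 CPM in FLAG-EED wildtype (37.6-fold) and from 23.5 and 23.3 CPM to 770.4 and 777.6 CPM in K19R (33.1-fold). Krt19 rose 42.9-fold to 324.9 and 292.4 CPM and 34.3-fold to 184.8 and 210.6 CPM. For neither did the step differ between the lines (Krt8 -0.18 ± 0.11, edgeR adjusted p = 0.17; Krt19 -0.32 ± 0.15, adjusted p = 0.078), although the Krt19 difference passed without replicate 2 of either day 6 group. Krt18 rose 62.1-fold to 2352 and 2261 CPM in FLAG-EED wildtype but 23.9-fold to 943.8 and 954.2 CPM in K19R. Its step differed by -1.38 ± 0.18 (adjusted p = 5.5e-07).

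**Figure D3:**
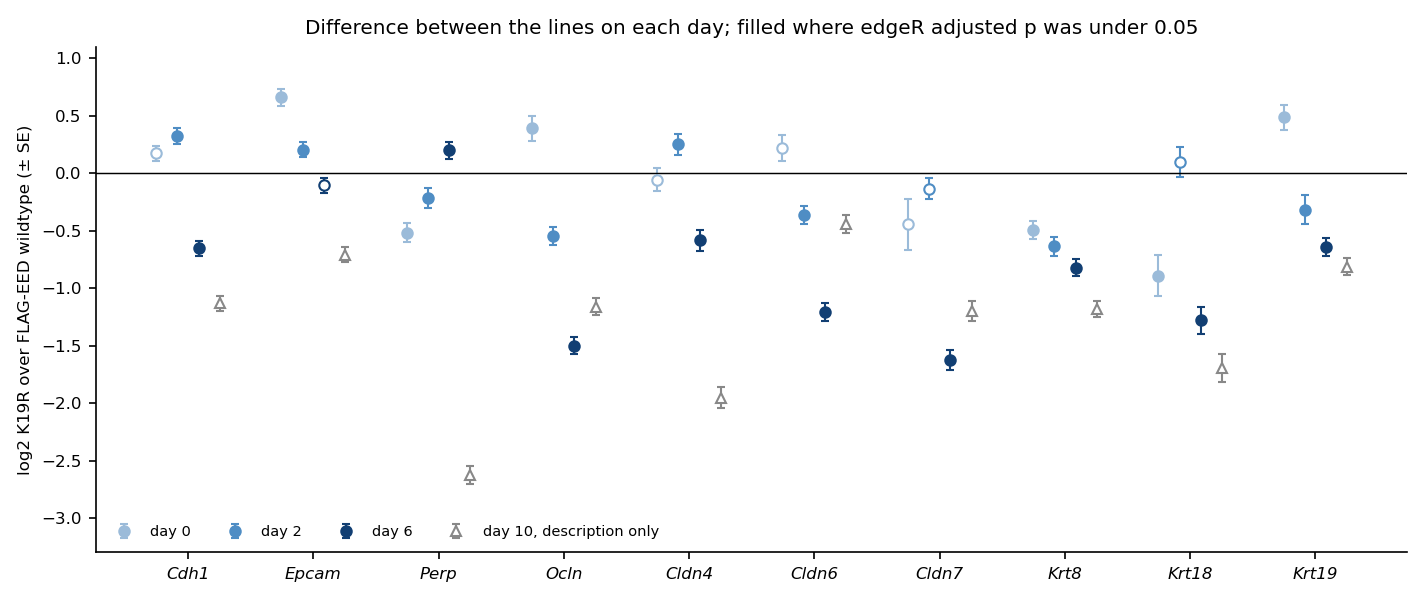
Log2 difference of K19R from FLAG-EED wildtype ± SE for each gene at day 0 (light blue), day 2 (mid blue) and day 6 (dark blue), filled where edgeR's adjusted p was under 0.05, and at day 10 (grey triangles, not tested). At day 6, 8 of the 10 genes lie at -0.58 or lower, with Epcam and Perp close to 0.

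At day 6 itself, K19R embryoid bodies had less RNA of 8 of the 10 genes, from 1.5-fold for Cldn4 to 3.09-fold for Cldn7, and slightly more Perp. Of all genes, 58.5% passed at this day, 30.1% lower and 28.4% higher, and the median of the 10 was -0.74 (all genes: 0.02). Cldn7 (-1.62 ± 0.08), Ocln (-1.50 ± 0.08), Krt18 (-1.28 ± 0.12) and Cldn6 (-1.21 ± 0.08) differed by more than 2-fold. Krt8 (-0.82 ± 0.07), Cdh1 (-0.65 ± 0.07), Krt19 (-0.64 ± 0.08) and Cldn4 (-0.58 ± 0.09) differed by less, with adjusted p from 1.6e-10 (Krt8) to 3.1e-06 (Cldn4). Epcam did not pass (-0.10 ± 0.07, edgeR adjusted p = 0.19). Perp was called higher in K19R (0.20 ± 0.08, adjusted p = 0.031), a call lost without either FLAG-EED wildtype library or without K19R replicate 2 (adjusted p = 0.05, 0.21 and 0.37). With library totals alone the 8 lower genes stayed called but by less, for example Cldn4 at -0.22, Krt19 at -0.28 and Cdh1 at -0.29, Perp was higher by 0.56, and Epcam was called higher by 0.26 (adjusted p = 0.00089), each against a median of 0.38 for all genes.

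At day 10, the day used to choose the set, all 10 genes had lower levels in K19R in both libraries, and 58.4% of all genes passed the same test at that day in either direction (25.2% lower and 33.2% higher). The set was chosen on this contrast, so these values are descriptions. Perp had the widest gap, at 211.4 and 227.7 CPM in FLAG-EED wildtype and 37.0 and 34.2 CPM in K19R (6.17-fold). Its level at day 10 was 4.54-fold above that at day 6 in FLAG-EED wildtype and 1.56-fold below it in K19R, so the gene that was a little higher in K19R at day 6 became the furthest below. Cldn4 followed at 884.7 and 962.2 CPM against 268.7 and 208.3 CPM (3.87-fold), then Krt18 at 3404 and 3908 CPM against 1124 and 1135 CPM (3.24-fold). Cldn6 was the nearest to equal, with 858.9 and 933.0 CPM against 652.0 and 669.8 CPM (1.36-fold, and -0.14 on the log2 scale with library totals alone). It was the one gene with a lower mean level at day 10 than at day 6 in FLAG-EED wildtype (log2 difference -0.34). Cdh1 reached 1928 and 2120 CPM in FLAG-EED wildtype and was at 925.9 and 921.4 CPM in K19R, the level it had held since day 2. Epcam was at 329.9 and 376.8 CPM against 216.5 and 216.6 CPM, Ocln at 312.3 and 288.5 against 133.1 and 135.6, and Cldn7 at 599.3 and 648.7 against 260.0 and 284.3. Krt8 was at 2404 and 2456 CPM against 1098 and 1046 CPM, and Krt19 at 690.4 and 677.9 CPM against 413.2 and 367.2 CPM.

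The balance within the keratins and within the claudins shifted with time. Krt8 protein pairs with a type I partner, and the ratio of Krt8 to Krt18 plus Krt19 RNA, per kb, was 2.37 and 1.80 in FLAG-EED wildtype stem cells and 1.84 and 1.54 in K19R stem cells. It was below 1 in every other group: 0.646 and 0.607 against 0.421 and 0.359 at day 2, 0.392 and 0.397 against 0.520 and 0.511 at day 6, and 0.448 and 0.407 against 0.558 and 0.541 at day 10. The K19R libraries were thus lower at day 2 and higher at days 6 and 10, without overlap. Krt18 made up 85.4% to 91.2% of the 2 type I keratins in all day 2 and day 6 libraries, but 56.2% and 68.8% in FLAG-EED wildtype and 40.0% and 41.0% in K19R stem cells. Among the 3 claudins, Cldn4 held 77.0% to 83.1% of the summed CPM per kb in day 0 libraries of both lines. At day 2 Cldn6 held the largest share, 60.2% and 59.5% in FLAG-EED wildtype and 52.8% and 51.0% in K19R. At day 10 the lines parted: Cldn4 and Cldn6 held 37.7% and 38.6% in each FLAG-EED wildtype library, while in K19R Cldn4 held 22.4% and 17.7% and Cldn6 57.4% and 59.9%. These shares are descriptions with no test.

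Other junction genes were read from lists that did not include the 10. In FLAG-EED wildtype, 19 of 21 tested tight junction genes rose from day 0 to day 2 and 1 fell, and 17 rose and 3 fell from day 2 to day 6. Of all genes, 28.5% rose and 27.6% fell in the first step, and 35.6% rose and 37% fell in the next. In K19R 16 rose and 1 fell in the first step (all genes: 28.5% and 27.9%), and 13 rose and 2 fell in the next (all genes: 34.7% and 32.1%). At day 6, where 30.1% of all genes were lower and 28.4% higher and their median was 0.02, 9 of 13 adherens junction partners were lower in K19R and 1 higher, with a median of -0.40. Ctnna1 (alpha-catenin, 749 and 768 CPM in FLAG-EED wildtype, 557 and 586 in K19R) differed by -0.41 ± 0.06. Ctnnb1 (beta-catenin) differed by -0.40 ± 0.07, and Nectin2, a nectin that joins cells beside E-cadherin, by -0.88 ± 0.06. Of the 21 tight junction genes 14 were lower and 3 higher, with a median of -0.64. F11r, the junctional adhesion molecule, was at 382 and 381 CPM against 152 and 145 CPM (-1.36 ± 0.07). Cldn9, which lies 138 bases from Cldn6, was at 7.09 and 5.61 CPM against 1.58 and 1.89 CPM (-1.87 ± 0.24), the largest fall at that day in any list. Cldn5 (3.47 ± 0.45) and Ybx3 (0.50 ± 0.07) were higher, Cldn5 from 0.261 and 0.059 CPM to 2.27 and 1.71 CPM. With library totals alone the adherens list had 4 higher and 4 lower, so its direction depends on the scaling, while the tight junction list still had 11 lower and 5 higher. The alternatives for these lists were chosen after seeing the data.

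Desmosome genes were mixed, with 3 of 8 tested higher and 4 lower at day 6 (4 higher and 3 lower with library totals alone). Of all genes, 28.4% were higher and 30.1% lower at that day. Dsp, the desmoplakin that ties keratins to desmosomes, was at 281 and 273 CPM against 211 and 232 CPM (-0.32 ± 0.09, edgeR adjusted p = 0.003). Dsg2, a desmosomal cadherin, differed by -1.102 ± 0.09 at day 6, and Pkp4 did not pass (-0.05 ± 0.08). Of 11 other keratins tested, 4 were higher and 2 lower at day 6, all at low levels beside Krt8 and Krt18. Krt7, a simple-epithelium keratin, was at 23.4 and 19.1 CPM against 37.1 and 31.7 CPM (0.69 ± 0.16), Krt42 rose by 1.2 ± 0.32, and Krt20 was at 4.39 and 4.01 CPM against 3.12 and 1.89 CPM (-0.77 ± 0.26). Krt14, a keratin of the epidermal basal layer, had 4 and 5 counts in FLAG-EED wildtype and 0 in K19R stem cells, at least 1.46-fold lower taking 3 counts per library as the floor. Of 15 genes of the epithelial surface and protein sorting, 11 were lower and 1 higher at day 6 (median -0.85), among them Ezr, the microvillus linker ezrin (1530 and 1560 CPM against 587 and 569 CPM, -1.42 ± 0.07), and the protease inhibitors Spint1 (-1.39 ± 0.06) and Spint2 (-0.99 ± 0.07). Library totals left 10 lower and 2 higher.

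**Figure D4:**
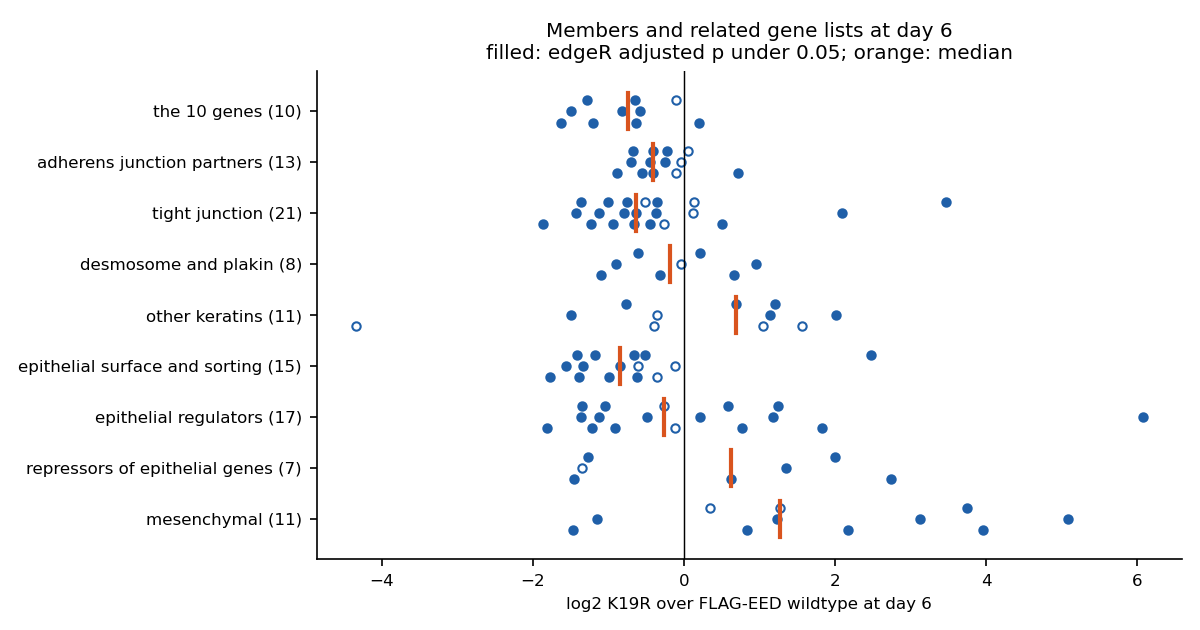
Log2 difference of K19R from FLAG-EED wildtype at day 6 for the 10 genes and for each gene of 8 related lists, 1 point per tested gene, filled where edgeR's adjusted p was under 0.05, with the list median as an orange bar (number of tested genes in brackets). Adherens, tight junction and epithelial surface lists have medians of -0.40, -0.64 and -0.85, and the mesenchymal list 1.27; points beyond 4 or -4 (Trp63, Col3a1 and Krt13) have 0 counts in both libraries of 1 line, so their positions are not sizes of change.

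At day 0, where 5.51% of all genes were higher and 4.98% lower, 2 adherens partners were higher and 1 lower, 4 tight junction genes higher and 2 lower, and no desmosome gene passed (1 was higher with RLE scaling, 0 with library totals). Esrp1, an epithelial splicing factor, rose most after Col3a1, from 1.67 and 2.20 to 3.88 and 4.75 CPM (1.14 ± 0.18, edgeR adjusted p = 1e-04). At day 2, where 20% of all genes were higher and 21.8% lower, 5 adherens partners were higher and 3 lower, 8 tight junction genes higher and 7 lower, and 3 desmosome genes higher and 4 lower (3 higher and 5 lower with library totals alone). Cldn5 (2.03 ± 0.24) and Cldn23 (1.79 ± 0.49) were the largest rises there, Cldn23 from 0.174 and 0.244 CPM to 0.811 and 0.686 CPM.

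Transcription factors that drive epithelial genes did not all follow the 10 genes. Of 17 tested, 7 were higher and 8 lower in K19R at day 6, where 28.4% of all genes were higher and 30.1% lower. Klf4 (97.9 and 100 CPM against 29.9 and 26.4 CPM, -1.81 ± 0.09), Klf5 (-1.37 ± 0.08) and Hnf4a, a factor of visceral endoderm and liver (-1.05 ± 0.14), were lower. At day 2 the gap was already wide for Klf4 (-2.28 ± 0.10), Klf5 (-2.22 ± 0.08) and Hnf4a (-2.77 ± 0.16). Of the 10 genes, 5 were then lower in K19R, 3 higher and 2 not called, where 21.8% of all genes were lower and 20% higher. The part of these factors in the levels of the 10 genes was not tested. At day 10, described without a test, Klf4 and Klf5 were still lower in K19R. Hnf4a was then higher, at 246 and 186 CPM in FLAG-EED wildtype against 383 and 398 CPM in K19R. Grhl2, a regulator of Cdh1 and claudin genes, was higher in K19R at days 0, 2 and 6, though the day 2 call was lost with library totals alone (0.19, edgeR adjusted p = 0.061; 0.021 with RLE scaling): 15.9 and 16 CPM against 7.13 and 7.51 at day 0 (1.12 ± 0.12), 189 and 169 CPM against 155 and 154 at day 2 (0.21 ± 0.08, edgeR adjusted p = 0.036), and 35.8 and 34.9 CPM against 15.9 and 13.8 at day 6 (1.24 ± 0.10). Grhl3 was lower at day 6 (-1.22 ± 0.11), Ovol2 higher (0.77 ± 0.15) and Ovol1 did not pass. Esrp1 (0.21 ± 0.08, adjusted p = 0.023) and Esrp2 (-0.49 ± 0.11) went opposite ways. Trp63, a basal epithelial factor, had 0 counts in both FLAG-EED wildtype libraries and 7 to 11 counts in K19R, at least 2.26-fold higher against 3 counts per library. With library totals alone, 2 of the 3 regulators called higher at day 2 were still called.

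Repressors of epithelial genes were likewise split by member. At day 6, 4 of 7 tested were higher in K19R and 2 lower, where 28.4% of all genes were higher and 30.1% lower. Zeb1 (0.174 and 0.413 CPM against 1.30 and 0.961 CPM, 2.00 ± 0.43), Zeb2 (1.22 and 1.53 CPM against 2.88 and 4.02 CPM, 1.35 ± 0.32) and Snai2 (2.74 ± 0.69) were higher but low, at no more than 4.02 CPM. Tcf3, the most abundant, was at 72.9 and 72.2 CPM against 108 and 115 CPM (0.62 ± 0.07). Snai1 (18.9 and 17.9 CPM against 6.49 and 8.65 CPM, -1.27 ± 0.16) and Twist1 (17.9 and 18 CPM against 6.24 and 6.83 CPM, -1.45 ± 0.13) were lower. Twist1 was lower at day 0 too (-1.02 ± 0.16). Zeb1 itself was at 39.0 and 36.4 CPM in FLAG-EED wildtype stem cells and 32.6 and 34.0 CPM in K19R, and at 0.174 to 1.30 CPM in all day 6 libraries.

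Mesenchymal genes were higher in K19R for 7 of 11 tested and lower for 2 at day 6, with a median of 1.27. Of all genes, 28.4% were higher and 30.1% lower at that day, with a median of 0.02, or 0.38 with library totals alone. Cdh2, the N-cadherin of mesenchymal and neural cells, was at 2.61 and 1.42 CPM against 7.58 and 11.1 CPM (2.17 ± 0.22), and Vim at 28.2 and 26.8 CPM against 46.4 and 51.8 CPM (0.84 ± 0.08). Cdh2 was named after its values were seen. Of the 2 lower genes, Fn1 was at 1880 and 2140 CPM against 913 and 889 CPM (-1.16 ± 0.11) and Pdgfra, a growth factor receptor, differed by -1.47 ± 0.08. Both are also known in primitive and parietal endoderm. Pdgfra had the largest fall of the lists at day 2 (218 and 222 CPM against 16.8 and 16.2 CPM, -3.74 ± 0.09). At day 10, described without a test, Pdgfra was higher in K19R, at 99.3 and 93 CPM against 135 and 147 CPM. Fn1 was still lower there, at 3650 and 4060 CPM against 1370 and 1290 CPM. Col3a1, a fibroblast collagen, had 0 counts in FLAG-EED wildtype and 3 to 6 counts in K19R at day 6, at least 1.09-fold higher against 3 counts per library. At day 0 it was also called higher, with 1 and 0 counts in FLAG-EED wildtype and 11 and 4 counts in K19R.

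Summed markers of other cell types differed between the lines, those of endoderm and surface ectoderm being lower in K19R at day 6 and the other 6 lists higher. Some of these sums were mostly that of a single gene, as given below. The 11 markers of visceral and primitive endoderm were all detected in every group and summed to 18800 and 19300 CPM in FLAG-EED wildtype against 7270 and 7580 CPM in K19R at day 6. At day 2 they summed to 3840 and 3910 CPM against 385 and 316 CPM. At day 10 the sums were 30500 and 30900 CPM against 19700 and 19400 CPM, of which Afp, the fetal serum protein alpha-fetoprotein, made up 22000 and 23000 CPM against 11300 and 9530 CPM. Without Afp, an alternative chosen after seeing the data, the other 10 markers were lower in K19R at day 2 (3830 and 3910 CPM against 382 and 309 CPM) and day 6 (12500 and 12700 CPM against 5000 and 4950 CPM), but the lines overlapped at day 10 (8480 and 7920 CPM against 8390 and 9850 CPM). The share of endoderm cells was not measured, and its part in the differences of the 10 genes was not tested. Stem cell markers (6 genes) summed to 136 to 174 CPM in FLAG-EED wildtype and 553 to 614 CPM in K19R at day 6, and to 52.2 to 54.3 CPM against 473 to 593 CPM at day 10. Fibroblast markers (6 genes) summed to 6.84 to 8.35 CPM against 37.4 to 49.2 CPM at day 6, with Col3a1, Postn and Dcn at 0 counts in FLAG-EED wildtype. Markers of surface ectoderm and epidermis (6 genes) summed to 43.4 to 46.3 CPM against 19.5 to 22.2 CPM at day 6 and to 36.7 to 40.9 CPM against 25.7 to 26.7 CPM at day 10, with Trp63 at 0 counts in FLAG-EED wildtype at day 6. Grhl3 alone had a mean of 42 CPM against 18 CPM at day 6 and 35.2 CPM against 19.4 CPM at day 10. Of the others, all low, Krt5 was lower in K19R at day 6 (1.93 CPM against 0.68 CPM). Trp63, Krt14, Krt15 and Tfap2a were higher there, so the lower sum rests on Grhl3. Those of mesoderm and heart (7 genes) summed to 5.07 to 5.13 CPM against 19.9 to 20.4 CPM at day 6, of which Actc1 made up 0.766 CPM against 13 CPM. Neural markers (7 genes) summed to 64.4 to 74.7 CPM against 140 to 151 CPM at day 6, but to 161 to 183 CPM against 79.2 to 90.3 CPM at day 10. Nes alone had 165 CPM against 47.3 CPM at day 10. Endothelial and blood markers (6 genes) summed to 13 to 15 CPM against 34.3 to 43.1 CPM at day 6, with Hbb-bs at 0 counts in every group. Pecam1 alone had 10.9 CPM against 35.2 CPM there, and 349 CPM against 365 CPM in the stem cells of day 0. At day 6 Kdr was at 2.07 CPM against 1.91 CPM and Cdh5 at 0.913 CPM against 1.54 CPM. Trophoblast markers (8 genes), another simple epithelium with these keratins, summed to 63.3 to 78.5 CPM against 95.0 to 97.7 CPM at day 6 and to 155 to 179 CPM against 136 to 158 CPM at day 10. Without Krt7, which alone had 135 and 118 CPM against 56.9 and 31.9 CPM at day 10, the other 7 summed to 43.8 and 37.1 CPM against 101 and 104 CPM there, and to 55.0 and 44.2 CPM against 60.5 and 63.3 CPM at day 6. The part of all these cells in the differences of the 10 genes was not tested.

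**Figure D5:**
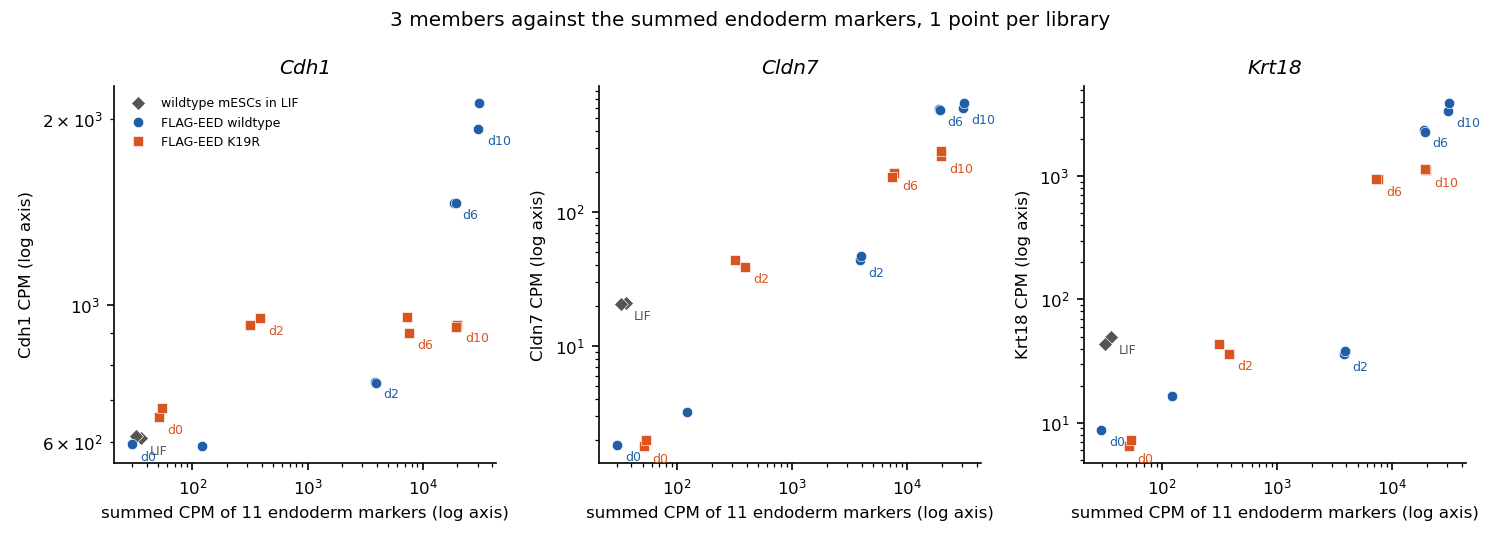
CPM of Cdh1, Cldn7 and Krt18 against the summed CPM of 11 visceral and primitive endoderm markers (both axes log), 1 point per library, coloured by line and labelled by day (LIF: wildtype mESCs). At day 2 the FLAG-EED wildtype libraries lie at 3840 and 3910 CPM of markers and K19R at 316 and 385 CPM, and at day 6 at 18800 and 19300 CPM and at 7270 and 7580 CPM.

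Across the 18 libraries, the log2 levels of the 10 genes fell into looser and tighter pairs. Cldn6 and Cldn7 had a Pearson r of 0.996, and Krt8 and Krt19 one of 0.977. Epcam and Perp had the lowest, 0.424. Libraries of 1 group and time course share their state, so these r are descriptions of 18 points in 9 groups. Among 19286 other genes, Kctd17 (0.97), Pex14 (0.96) and Actn4, an actin crosslinker of junctions (0.96), had the pattern most like that of Cdh1. Rian, a long non-coding RNA (0.997), Rassf6 (0.994) and Cblc (0.994) were most like Cldn6, and Rhou (0.995) and Gsn, the actin-severing gelsolin (0.992), were among those most like Krt18.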

How the data were processed

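Total RNA libraries were sequenced from 9 groups with 2 libraries each. The deposited tables hold raw counts of reads per gene, made by the authors with featureCounts on exons grouped by gene name, per the file headers (version 1.6.3 for the FLAG-EED table, 1.6.4 for the wildtype table), with GENCODE vM19 on GRCm38 and no strand option. STAR 2.7.0c and Trim Galore 0.6.0 are among the tools in the submitters' processing notes. Gene length is the deposited exon length, per the file headers. Without strand, reads of overlapping antisense genes cannot be told apart.

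The count tables were joined by gene name. Levels are CPM with TMM scaling over 18 libraries, and tests used edgeR 4.0.16 (R 4.3.3, limma 3.58.1) quasi-likelihood fits after filterByExpr (count minimum 10, total minimum 15), two-sided, with Benjamini-Hochberg adjustment over all 19092 genes of the 16 FLAG-EED libraries (8 residual degrees of freedom) or 19296 genes of all 18 libraries (9). The biological coefficient of variation was 0.062. Replicates differed by more than sampling noise in every group (chi-square per degree of freedom 2.28 to 11.2). Counts were simulated for the day 6 comparison (18288 genes) with 200 genes changed, equally up and down. Of these, 89% of genes changed by 1 log2 unit and 95% of those changed by 2 were recovered, with 8 unchanged genes called. All other genes had equal means in the 2 lines, so the simulation held no shift in scaling. In the data 58.5% of genes passed at day 6, and how well the test works in that setting was not tested.

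The 10 genes and the lists were chosen with earlier results of these data known. Named list genes are the 3 with the highest mean CPM per kb in each list, the 2 largest rises and falls among passing list genes in each comparison of the lines, the Snai, Zeb, Grhl, Ovol and Esrp genes, and for Cdh1, Cldn6 and Krt18 the 3 genes most alike by Pearson r of log2 CPM (prior count 2). Some genes that this rule names are not reported here. Alternatives were RLE size factors, library totals, no filter, a replicate block, DESeq2 1.42.0, only the groups compared, and leaving out each library. Those for the lists, Grhl2, the marker sums and day 10 were chosen after seeing the data. Promoter sequences are from RefSeq.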

Additional observations from a re-analysis of the deposited data

Results flagged for a closer look

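The steps of 8 genes between day 2 and day 6 differed between the lines by edgeR's test of the difference itself (log2, K19R minus FLAG-EED wildtype): Cdh1 -0.98, Epcam -0.31, Perp 0.41, Ocln -0.95, Cldn4 -0.83, Cldn6 -0.85, Cldn7 -1.49 and Krt18 -1.38. The step from day 0 to day 2 differed for 5 genes: Epcam -0.46, Ocln -0.94, Cldn6 -0.58, Krt18 0.99 and Krt19 -0.80. Of all genes, 44.5% passed for the day 2 to 6 step and 27.1% for the day 0 to 2 step. For Epcam, Ocln and Cldn6 the difference was negative in both steps, and for Krt18 it was positive in the first and negative in the next. As given above, the first-step calls of Krt18 and Cldn6 depended on single FLAG-EED wildtype day 0 libraries. With library totals alone the second-step difference of Epcam was positive and not called.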

How the results depend on the processing

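Over all alternatives, 1018 values for single genes kept direction and call, 40 lost the call, 9 gained one and 13 reversed. With library totals alone, Epcam was at 0.26 between the lines at day 6, at -0.0328 in the FLAG-EED wildtype step from day 2 to 6 and at 0.07 in the difference of the steps, where Krt8 was at 0.20 and Krt19 at 0.055. The share of called genes that were higher moved from 48.6% to 72.9% at day 6, from 49.1% to 34.6% in the FLAG-EED wildtype step from day 2 to 6 and from 52.1% to 80.8% in the difference of the steps, and the median of all genes moved to 0.38, -0.45 and 0.45. At day 0 that share was 52.5%, and it moved to 59.3% (RLE scaling) and 42.6% (library totals). With no filter, Cdh1 was at -0.0159 in LIF against LIF + 2i. Without single libraries, other reversals gave these ranges: Cldn7 at day 0 -0.789 to 0.03 and its difference of the day 0 to 2 steps -0.163 to 0.657 (both ends from FLAG-EED wildtype day 0), Cldn4 at day 0 -0.146 to 0.0328, Krt18 at day 2 -0.0251 to 0.223, and in the K19R step from day 2 to 6 Cdh1 -0.0578 to 0.031 (0.0012 without day 2 replicate 1) and Epcam -0.00159 to 0.0925. The cause was not tested.

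Leaving out 1 library gave 4 to 7 called genes at day 2 (8 in full), 5 at day 0 (6 in full), and 8 to 9 at day 6 (9 in full). At day 0, Ocln lost its call without FLAG-EED wildtype replicate 1 (0.43, edgeR adjusted p = 0.069) or 2 (0.35, adjusted p = 0.17) or K19R replicate 1 (0.27, adjusted p = 0.31), and Krt19 without FLAG-EED wildtype replicate 1 (0.43, adjusted p = 0.079) or K19R replicate 2 (0.45, adjusted p = 0.057). The number of calls with only the groups compared over all genes at day 0 was 4014, against 2003. With the replicate number as a block, Perp at day 2 lost its call (-0.22, edgeR adjusted p = 0.053), 7 genes were called there in place of 8, and no other call changed. Replicate differences of groups correlated between -0.0274 and 0.0213 over all genes. A batch that moved few genes would not show in such values, and the labels do not say whether libraries with the same number belong together.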
